A study of Mus musculus with 30 samples.

Results

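The genes described here encode the subunits of the mitochondrial respiratory chain and of the ATP synthase, and they were chosen by symbol alone, with no expression value in the choice. Taken were all symbols that begin with Ndufa, Ndufb, Ndufc, Ndufs or Ndufv and a digit, with Uqcr, with Atp5, or with Cox and a digit from 4 to 8, together with Sdha, Sdhb, Sdhc, Sdhd and Cyc1. Symbols of pseudogenes, of related sequences and of the Ndufaf assembly factors were left out. The choice gave 86 genes, of 25520 symbols in the files of untreated cells and 25410 in the files of the hormone experiment. By role they were 7 core and 28 accessory subunits of complex I, 4 subunits of complex II, 9 of complex III, 12 of complex IV, 15 of the ATP synthase, and 8 isoforms known from particular tissues or conditions (Cox4i2, Cox6a2, Cox6b2, Cox7a1, Cox7b2, Cox8b, Cox8c and Ndufa4l2). The other 3 matched by name only: Cox4nb is an older symbol of Emc8, a subunit of a membrane protein insertase of the endoplasmic reticulum, and Atp5s and Atp5sl are no longer counted as structural subunits of the ATP synthase.

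The cells were IDG-SW3, a conditionally immortalised mouse bone line that is expanded with interferon-gamma at a lower temperature and then differentiated without it at body temperature in ascorbic acid and beta-glycerophosphate, from an osteoblast-like towards an osteocyte-like state. In the first experiment, untreated cells were collected on day 3, day 7 and then weekly from day 14 to day 35 after that switch (days 14, 21, 28 and 35), with 3 libraries a day and 18 in all. In the second, cells on day 3 or day 35 received 100 nM 1,25(OH)2D3, the active form of vitamin D, or its ethanol vehicle for the last 24 h, with 3 libraries in each of 4 groups. All groups share 1 cell line and the same medium, and the time since the switch of temperature and interferon-gamma cannot be told apart from differentiation. The labels call the libraries biological replicates and say no more of their origin, so the spread between them may be partly technical. The labelled cell type was checked on markers: 8 of 8 tested osteoblast markers rose from day 3 to day 35 in untreated cells and 8 of 9 in vehicle-treated cells. Of 8 osteocyte markers, only 2 were tested in untreated cells (1 higher, 1 lower) and all 8 in the vehicle groups (5 higher, 1 lower).

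Complex I (NADH dehydrogenase) and complex II (succinate dehydrogenase, also an enzyme of the TCA cycle) pass electrons to coenzyme Q, complex III passes them to cytochrome c, and complex IV (cytochrome c oxidase) passes them to oxygen. Complexes I, III and IV pump protons as they do so, and the ATP synthase lets the protons flow back through its membrane sector while its catalytic head makes ATP. Most subunits are encoded in the nucleus, a few core ones in mitochondrial DNA, and several subunits of complex IV exist in a widely used form and a form known from muscle, lung, testis or low oxygen. Bone-forming cells are known to rely largely on glycolysis, with oxidative phosphorylation varying over their differentiation.

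Values of untreated cells are scaled RPKM, reads scaled by gene length and sequencing depth as listed and then divided by a factor per library, and values of the hormone experiment are CPM, a gene's count relative to its library's total after TMM scaling. A change is called where the adjusted p is under 0.05 (limma for untreated cells, edgeR's quasi-likelihood test for the hormone experiment, Benjamini-Hochberg over all genes tested). Total counts ran from 45091654 to 46496429 in the vehicle day 3 libraries, 22062866 to 30059130 with hormone on day 3, 28114286 to 36056152 with vehicle on day 35 and 32390570 to 54325515 with hormone on day 35. The number of reads behind an RPKM value is unknown. Of the 86 genes, 65 passed the filter on low values in untreated cells, 79 in the hormone experiment, 63 in both and 5 in neither (Cox7a1, Cox7b2, Cox8c, Ndufs1 and Sdhd). Because the filter admits a gene on 3 high libraries, counts below cover the tested genes and not the whole set.

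The most abundant members differed between the experiments. In untreated cells the highest mean levels over all libraries were those of Atp5e, the epsilon subunit of the ATP synthase head, at 143 scaled RPKM, Ndufb3 at 134, Uqcr11 at 99.6 and Uqcrfs1, the Rieske iron-sulfur protein of complex III, at 78.0. In the hormone experiment the highest levels per length were those of Atp5b, the catalytic beta subunit, at 268 CPM per kilobase, Ndufb9 at 156, Atp5a1, the alpha subunit of the same head, at 150 and Cox7b at 142. Atp5a1 stood at 1.9 scaled RPKM in untreated cells, and Cox7b at 0.451. Over all 86 members, tested or not, the levels on day 3 had a rank correlation of 0.352 between the experiments. It is given as a description only, since the library kits differed and the members share those libraries. Several genes that all respiring cells use were listed at 0. Atp5g1, Cox7a2l and Ndufs1 were at 0 in all 12 hormone-experiment libraries. Sdhd, a membrane anchor of complex II, was at 0 in 17 untreated libraries, among them 3 of 3 on day 35. Its highest untreated value was 0.103 RPKM as listed, so it was near 0 over the whole course. In the hormone experiment Sdhd had 57 counts in all and was at 0 in 5 of the 12 libraries. A value of 0 for such a gene may be a failed estimate, and the cause was not tested. Levels are therefore compared only within an experiment.

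Between day 3 and day 35 of the untreated course, scaled to the bulk of genes, 16 of 65 tested members rose, 6 fell and 43 were not called. Ndufa4l2, Cox4i2, Uqcrq, Ndufb10 and Atp5g1 rose most, and Atp5j2, Uqcrc2, Sdhb, Atp5c1 and Atp5a1 fell most. Over all 9933 genes tested, 54.4% were called (25.8% higher and 28.7% lower), against 24.6% of members higher and 9.23% lower. Every day 35 library lay above every day 3 library for 28.0% of all tested genes and below for 30.8%. The members' shares were 23.1% and 9.23%. The median member change was 0.24 on the log2 scale and that of all tested genes was -0.02. This direction depends on the scaling: with RPKM as listed 2 members rose and 24 fell, with a member median of -0.53 beside -0.69 for all genes, and with libraries rescaled to the rows other than ribosomal RNA 4 rose and 14 fell, with medians of -0.19 and -0.37. The all-gene split moved likewise, from 2559 higher and 2847 lower to 559 and 5117 with RPKM as listed and to 1389 and 4147 with the rescaled values. With RPKM as listed the 2 that rose were Cox4i2 and Ndufa4l2, and with the rescaled values these and Uqcrq and Ndufb10. Cox4i2 and Ndufa4l2 passed the filter only through libraries of days 28 and 35, 4 for each gene, so that a difference from day 3 was a condition of their being tested. The calls grew in number over the course: 3 higher and 2 lower on day 7, 2 and 4 on day 14, 9 and 3 on day 21, and 11 and 3 on day 28, where 31.1%, 38.3%, 46.4% and 49.9% of all genes were called and 13.6%, 16.7%, 21.1% and 23.3% were higher. Atp5sl and Cox4nb, which matched by name only, were among the higher calls of days 7 and 35, and Atp5sl among those of day 21. All 5 days are compared with the same 3 day 3 libraries. Blocking on replicate number gave more higher calls, 10 on day 7, 5 on day 14 and 20 on day 28. Single libraries also moved these counts. The 16 higher members on day 35 became 10 without day 3 replicate 1. Leaving out day 3 replicate 1 turned the 9 on day 21 into 2, and leaving out day 21 replicate 2 into 3. Leaving out day 21 replicate 3 or either other day 3 library gave 5. The 3 on day 7 became 0 or 1 without replicates 2 or 3 of either day, and the 2 higher and 4 lower on day 14 became 0 and 2 without day 3 replicate 3, day 14 replicate 1 or day 14 replicate 3.

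**Figure D1:**
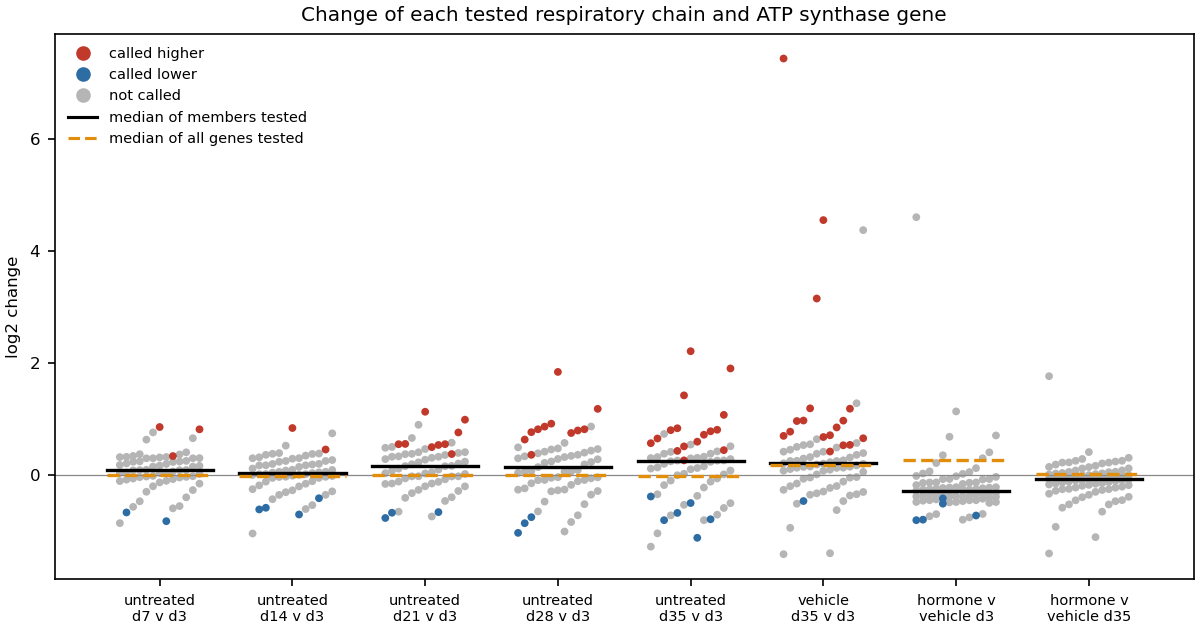
Each point is 1 tested member, placed by its log2 change in each of 8 comparisons, coloured by its call (red higher, blue lower, grey not called), with the member median as a black bar and the median of all tested genes as a dashed orange line. Member medians lie between 0.04 and 0.24 in the 5 untreated comparisons and at -0.28 for the hormone on day 3, where the all-gene median is 0.26.

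The summed level of the 75 widely used subunits, was 922, 1050 and 1043 scaled RPKM on day 3 and 1301, 1424 and 1289 on day 35, so that every day 35 library lay above every day 3 library on this scale. As a share of the level of all rows other than ribosomal RNA, the sum was 0.647%, 0.702% and 0.693% on day 3 and 0.657%, 0.681% and 0.654% on day 35, within the range of day 3. The share was 0.747 to 0.782% on day 7, 0.689 to 0.785% on day 14, 0.731 to 0.815% on day 21 and 0.707 to 0.741% on day 28. All libraries of days 7, 21 and 28 thus lay above those of day 3 in share, and those of days 14 and 35 overlapped them. Within each replicate number, 36, 36 and 35 of 59 tested subunits of this kind were higher on day 35 than on day 3 on the scaled values, with medians of 0.18, 0.21 and 0.21. Replicate 1 came from a single sequencing run, whereas the day 3 and day 35 libraries of replicates 2 and 3 came from different runs. Day 35 replicates 2 and 3 were the only libraries of their run. With the sequencing run as a term, a day 35 change below therefore rests on day 35 replicate 1 alone.

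Of the accessory subunits of complex I, 6 of 21 tested rose and 15 were not called on untreated day 35, where 25.8% of all genes were higher. In the vehicle comparison 6 of 28 rose and 22 were not called, beside 15.5% of all genes, so that both counts lay near the all-gene shares. The medians were 0.26 and 0.30. Accessory subunits surround the catalytic core and serve its assembly and stability. Ndufb10, of the membrane arm, had 44.5, 42.3 and 51.2 scaled RPKM on day 3 and 91.8, 112 and 88.7 on day 35. All 3 later libraries lay above all 3 early ones, as they did for 28.0% of all tested genes. The change was 1.07 ± 0.18 on the log2 scale (SE, 2.10-fold, limma adjusted p = 8.5e-05). On day 28 Ndufb10 already stood at 69.1, 85.8 and 89.8. In vehicle-treated cells it had 67.4, 30.6 and 40.5 CPM on day 3 and 54.2, 82.9 and 99.5 on day 35, so that the groups overlapped, and the change of 0.77 ± 0.27 passed narrowly (edgeR adjusted p = 0.0408). That call was lost without any 1 of replicates 2 and 3 of either group, with adjusted p from 0.113 to 0.175 in edgeR, and under a replicate block (0.0585). Ndufa6, a subunit at the junction of the arms that binds the acyl carrier protein, had 7.76, 7.95 and 7.81 scaled RPKM on day 3 and 15.1, 14.7 and 12.5 on day 35. Its replicates were close together on each day, with a change of 0.81 ± 0.19 (limma adjusted p = 0.00157). With vehicle Ndufa6 had 26.7, 21.2 and 19.8 CPM on day 3 and 35.7, 43.7 and 53.4 on day 35, a change of 0.97 ± 0.18 (edgeR adjusted p = 0.000678) with no overlap. Ndufa13, also known as the cell death regulator GRIM-19, rose in untreated cells from 15.3, 17 and 12.7 scaled RPKM to 31.4, 27 and 20.5 (0.78 ± 0.17, limma adjusted p = 0.000824). The other accessory subunits called on untreated day 35 were Ndufb3, Ndufb11 and Ndufa11, with changes from 0.44 to 0.72. Ndufb3 was not called without day 3 replicates 1 or 2 or day 35 replicates 2 or 3 (0.37 to 0.80), and Ndufa11 not without any day 3 library or day 35 replicate 2 (0.24 to 0.43). Ndufa7 was called on day 21 only, at 1.13 ± 0.35 (limma adjusted p = 0.015), and was lost without day 3 replicate 1, day 21 replicate 2 or day 21 replicate 3 (0.90 to 0.97). Leaving out any single library ended none of the day 35 calls of Ndufb10, Ndufa6 and Ndufa13 in untreated cells, but other scalings did. With RPKM as listed Ndufb10 changed by 0.2 (limma adjusted p = 0.562), and the signs of Ndufa6 and Ndufa13 turned negative. With libraries rescaled to the rows other than ribosomal RNA, Ndufa6 changed by 0.38 (limma adjusted p = 0.112) and Ndufa13 by 0.34 (0.0845).

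The promoters of Ndufb10 and Ndufa6 are shown as examples of accessory subunits that rose in both experiments. Ndufb11 rose in both as well, and its promoter, which is not shown, had no match to any motif named below. Each runs from 250 bases before to 50 bases after the annotated start, 5′ to 3′ on the gene's strand, from RefSeq on GRCm38.p6, at chr17:24724374-24724673 and chr15:82354242-82354541, both on the minus strand. Capitals mark matches to the letters ACGTG, the core of a hypoxia response element, or to GCGCA, any 1 base and GCGC, the core of an NRF1 site, each searched on both strands.
Ndufb10: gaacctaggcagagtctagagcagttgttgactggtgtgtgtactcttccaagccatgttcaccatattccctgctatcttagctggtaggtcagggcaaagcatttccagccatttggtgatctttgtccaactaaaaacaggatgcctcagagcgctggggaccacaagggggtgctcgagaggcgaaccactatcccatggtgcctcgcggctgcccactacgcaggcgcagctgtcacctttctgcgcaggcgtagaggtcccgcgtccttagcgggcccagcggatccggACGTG
Ndufa6: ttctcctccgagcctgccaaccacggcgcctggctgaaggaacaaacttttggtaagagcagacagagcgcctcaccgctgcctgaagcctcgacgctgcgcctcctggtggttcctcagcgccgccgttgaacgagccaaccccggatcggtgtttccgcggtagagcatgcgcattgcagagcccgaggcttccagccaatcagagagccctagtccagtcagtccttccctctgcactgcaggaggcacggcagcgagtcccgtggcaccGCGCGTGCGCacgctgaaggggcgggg
RefSeq gave a promoter for 66 of the 86 genes. The NRF1 core was present in 16 of them (24.2%), beside 4.78% of all 27025 promoters of the same length, and CCGGAAG, the core of an ETS or NRF2 site, in 15 (22.7%, beside 9.12%). ACGTG was present in 16 (24.2%, beside 19.7%). TATAAA, searched on the gene's strand only, was present in 3 (4.55%, beside 8.88%). A match is a description of letters and not of binding.

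The core subunits of complex I, which carry the flavin and iron-sulfur centres, had 1 of 5 tested called in untreated cells, higher on day 35. Of all genes 25.8% were higher there. Ndufs8, an iron-sulfur subunit, had 7.38, 10.5 and 8.53 scaled RPKM on day 3 and 9.15, 18.9 and 15.5 on day 35, with overlapping groups (0.65 ± 0.21, limma adjusted p = 0.0153, and 0.0502 to 0.0864 without day 3 replicates 1 or 3 or day 35 replicates 2 or 3). Ndufv1, the flavin-carrying subunit that takes up electrons from NADH, stood at 20.7 ± 1.49 on day 3 and 21 ± 1.39 on day 35 (SD, n = 3), with a change of 0.02 ± 0.10 (SE). Ndufv2 was not called either (0.29 ± 0.33 untreated, 0.18 ± 0.23 with vehicle). Ndufv3, an accessory subunit of the flavin-carrying module, rose in the vehicle groups from 10.1, 3.52 and 6.54 to 13, 14.9 and 18 CPM (1.18 ± 0.29, edgeR adjusted p = 0.00572), and Ndufb2 and Ndufc2 rose by 0.85 and 0.65. Ndufc2 was not called without vehicle day 3 replicate 3 (edgeR adjusted p = 0.0772) or vehicle day 35 replicate 2 (0.0695).

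In complex II, which has no proton pump, 2 of 3 tested subunits fell in untreated cells, where 28.7% of all genes were lower. None was called in the vehicle groups, where 29.9% of all genes were called. Sdhb, the iron-sulfur subunit, had 3.42, 3.58 and 3.32 scaled RPKM on day 3 and 2.46, 2.46 and 0.836 on day 35 (-0.79 ± 0.24, limma adjusted p = 0.0103). Sdha, which holds the flavin and oxidises succinate, had 7.72, 7.95 and 7.13 on day 3 and 6.02, 4.77 and 6.4 on day 35 (-0.39 ± 0.14, limma adjusted p = 0.026). Both had lower values in every day 35 library. With the sequencing run as a term the changes were -0.27 and -0.42, which rest on day 35 replicate 1 alone. Sdha was not called without day 3 replicate 2 (-0.38) or day 35 replicate 2 (-0.26). Sdhc, a membrane anchor, went the other way without a call, from 7.51, 7.07 and 7.88 to 8.57, 12.6 and 9.73 (0.42 ± 0.20, limma adjusted p = 0.0905). With vehicle Sdha changed by 0.12 ± 0.13, Sdhb by 0.07 ± 0.17 and Sdhc by 0.23 ± 0.17, and none was called.

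Complex III gave the member that rose most among the widely used subunits, Uqcrq, a small ubiquinone-binding subunit. It had 9.13, 7.16 and 8.38 scaled RPKM on day 3, 12.4, 17.6 and 14.7 on day 7, 10.9, 8.44 and 13.1 on day 14, 13.8, 10.4 and 9.25 on day 21, 15.5, 15.4 and 14.9 on day 28, and 28.4, 29.8 and 13.8 on day 35. Day 35 replicate 3 lay near the day 28 libraries, and the other two stood well above them. The change from day 3 was 1.42 ± 0.25 (2.68-fold, limma adjusted p = 0.000135). With vehicle Uqcrq had 7, 7.74 and 4.61 CPM on day 3 and 10.6, 13.5 and 20.1 on day 35, again without overlap (1.19 ± 0.27, edgeR adjusted p = 0.00324). Uqcrfs1 rose by 0.26 ± 0.09 in untreated cells (limma adjusted p = 0.0199, and 0.0531 to 0.0977 without any of the day 3 libraries or day 35 replicate 1), a sign that turned to -0.62 with RPKM as listed, -0.19 with the values rescaled without ribosomal RNA and -0.12 after quantile normalization. Uqcr11 rose by 0.43, turned to -0.45 and -0.02 under the first and second of these, and was not called without day 3 replicates 1 or 2 or day 35 replicates 1 or 3 (0.35 to 0.41). Uqcrc2, a core protein of the matrix side, fell from 2.04, 1.73 and 2.13 scaled RPKM to 1.49, 0.551 and 0.819 (-0.81 ± 0.21, limma adjusted p = 0.00423). Its change was -0.25 with the sequencing run as a term, which rests on day 35 replicate 1 alone. With vehicle, Uqcrc2 changed by 0.15 ± 0.17. Uqcrh, the hinge protein, rose with vehicle from 48.9, 34 and 36.9 to 56.8, 67.7 and 71.2 CPM (0.71 ± 0.16, edgeR adjusted p = 0.00386). Uqcrc1 and Cyc1, the cytochrome c1 that hands electrons to cytochrome c, were not called in either experiment, and Cyc1 had 1 vehicle day 3 library apart, at 28.1, 77.1 and 31 CPM.

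**Figure D2:**
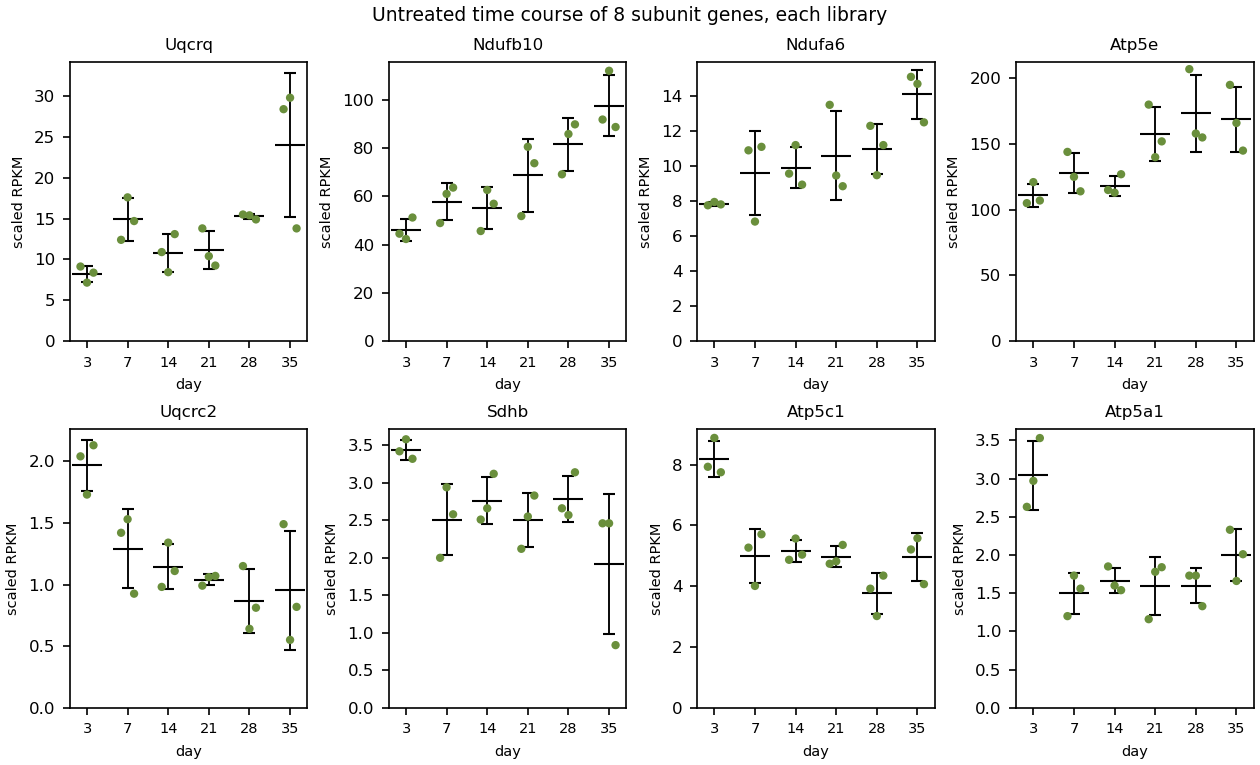
Scaled RPKM of Uqcrq, Ndufb10, Ndufa6, Atp5e, Uqcrc2, Sdhb, Atp5c1 and Atp5a1 in each untreated library by day, with the mean and SD of 3 libraries. Uqcrq runs from 7.16 to 9.13 on day 3 and from 13.8 to 29.8 on day 35, while Atp5c1 runs from 7.75 to 8.88 and from 4.07 to 5.58.

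None of 9 tested widely used subunits of complex IV was called by limma on untreated day 35, where 54.4% of all genes were called. Of these 9, 0 had an unadjusted p under 0.05, and the median was -0.01. Cox4i1, the common form of a regulatory subunit, had 4.13, 3.72 and 4.09 scaled RPKM on day 3 and 6.52, 4.42 and 2.78 on day 35, so that its spread on day 35 spanned the day 3 values. Cox5a changed by -0.72 ± 0.40 (limma adjusted p = 0.138), Cox5b by -0.23 ± 0.45, Cox6a1 by -0.01 ± 0.25 and Cox8a by 0.54 ± 0.42. Ndufa4, today counted with complex IV although its name is that of a complex I subunit, went from 1.69, 3.05 and 0.776 to 0.248, 1.34 and 0 (-1.28 ± 0.65, limma adjusted p = 0.104). Cox7a2l, a factor that joins complexes III and IV into supercomplexes, changed by 0.41 ± 0.29. In the vehicle groups 2 of 11 tested rose, beside 15.5% of all genes. Cox7c had 33.9, 16.9 and 24.6 CPM on day 3 and 43.9, 53.8 and 49 on day 35 (0.96 ± 0.24, edgeR adjusted p = 0.0067), and Cox7b had 154, 77.1 and 117 and then 161, 180 and 214 (0.68 ± 0.24, edgeR adjusted p = 0.0457). Cox7b was not called without replicates 2 or 3 of either group (edgeR adjusted p from 0.0916 to 0.171). Cox4i1 had 98.8, 86.6 and 78.6 CPM and then 93.2, 119 and 139, a change of 0.41 ± 0.17 that was not called (edgeR adjusted p = 0.0817). Cox7a2 changed by 0.05 ± 0.29.

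Of the ATP synthase genes, 2 of 13 tested rose in untreated cells, 3 fell and 8 were not called, beside 25.8% of all genes higher and 28.7% lower. Atp5e had 105, 121 and 107 scaled RPKM on day 3 and 195, 166 and 145 on day 35 (0.59 ± 0.15, limma adjusted p = 0.00248). It also rose with vehicle, from 22.6, 19.9 and 16.9 to 26.4, 29.3 and 30.5 CPM (0.54 ± 0.16, edgeR adjusted p = 0.0223), a call lost without vehicle day 3 replicate 3 or vehicle day 35 replicates 2 or 3 (0.0661 to 0.0859). The day 35 sign of Atp5e in untreated cells turned to -0.28 with RPKM as listed. Atp5c1, the gamma subunit that forms the rotating shaft, had 7.93, 8.88 and 7.75 scaled RPKM on day 3, 3.92, 3.02 and 4.35 on day 28, and 5.21, 5.58 and 4.07 on day 35. It was below day 3 in every library of both later days, and was called lower on all 5 later days. Its change on day 35 was -0.68 ± 0.16 (limma adjusted p = 0.00147). It was -0.70 with the sequencing run as a term, which rests on day 35 replicate 1 alone. Atp5a1 had 2.63, 2.97 and 3.53 on day 3, 1.2, 1.73 and 1.56 on day 7, and 2.33, 1.66 and 2.01 on day 35 (-0.50 ± 0.17, limma adjusted p = 0.0201). With the sequencing run as a term its day 35 change was -0.13, again on day 35 replicate 1 alone. Atp5a1 was not called without day 3 replicate 3 (-0.43) or day 35 replicate 2 (-0.39). Atp5b, the partner of Atp5a1 in the catalytic head, was not called, at 53.9, 62.1 and 62.2 on day 3 and 81.7, 71.9 and 57.8 on day 35. Atp5j2, a membrane-sector subunit, fell in untreated cells (-1.13 ± 0.45, limma adjusted p = 0.0431) from 2.36, 3.98 and 3.76 to 3.46, 0.313 and 1.14, with overlapping groups. The sign turned to 0.33 with the sequencing run as a term, which rests on day 35 replicate 1 alone. The call was lost without day 3 replicates 2 or 3 or day 35 replicates 2 or 3, with -0.57 without day 35 replicate 2. With vehicle Atp5j2 rose, from 26.5, 12.7 and 27.4 to 35.4, 46.2 and 48.8 CPM (0.97 ± 0.25, edgeR adjusted p = 0.00799).

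Atp5g1, Atp5g2 and Atp5g3 encode the same mature c-ring protein, and their values are uncertain because reads can be shared between them and with processed copies. Atp5g1 rose in untreated cells by 0.83 ± 0.23 (limma adjusted p = 0.00622), from 0.819, 1.2 and 1.65 to 2.69, 1.73 and 3.33. Atp5g3, the most abundant of them there, had 45.4, 54.1 and 52 on day 3 and 38.7, 52.7 and 54.7 on day 35 (-0.06 ± 0.14). With vehicle Atp5g3 was the only member called lower, from 43.1, 44.8 and 36.7 to 30.7, 29.8 and 29.5 CPM (-0.47 ± 0.15, edgeR adjusted p = 0.0314), a call lost with the replicate number as a block (0.0564) and without vehicle day 3 replicates 1 or 2 or any vehicle day 35 library (0.0583 to 0.104). Atp5g2 was not called in either experiment.

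In the vehicle groups as a whole, 17 of 79 tested members rose from day 3 to day 35, 1 fell and 61 were not called. Of all 20055 genes tested 29.9% were called, 15.5% higher and 14.5% lower, and the members' shares were 21.5% and 1.27%. Every day 35 library lay above every day 3 library for 24.3% of all tested genes and below for 18.7%, beside 25.3% and 7.59% of members. The member median was 0.21, beside 0.17 for all tested genes, and 56 of 79 members had a positive change. The counts were again 17 and 1 with library sizes alone in place of TMM factors, where Ndufb9 was called and Cox4i2 was not. The higher count fell to 11 without vehicle day 3 replicate 3, vehicle day 35 replicate 2 or vehicle day 35 replicate 3. Of the summed counts of all genes, not scaled by length, the widely used subunits took 0.403%, 0.316% and 0.334% on day 3. On day 35 they took 0.368%, 0.399% and 0.418%, so that the groups overlapped.

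Both experiments compare day 35 with day 3 on separate libraries. Of the 63 members tested in both, 8 rose in both: Atp5e, Cox4i2, Cox4nb, Ndufa4l2, Ndufa6, Ndufb10, Ndufb11 and Uqcrq. They made up 53.3% of the 15 higher in untreated cells and 66.7% of the 12 higher with vehicle. Of all 9372 genes tested in both, 1220 rose in both, which is 50.5% and 63.6% of the genes higher in each, so that the members' shares lay near those of all genes. None fell in both (untreated 6 lower, vehicle 1 lower), and Atp5j2 was called in opposite directions. A positive change in both was found for 30 of 63. Some of these calls did not hold in every setting. With vehicle, Ndufb11 was not called under a replicate block (0.0691) or without replicates 2 or 3 of either group (edgeR adjusted p from 0.0695 to 0.165). Cox4nb was likewise not called under the block (0.0553) or without vehicle day 3 replicates 2 or 3 or vehicle day 35 replicate 3 (0.0546 to 0.144). In untreated cells the change of Ndufb11 was 0.41 with the sequencing run as a term, which rests on day 35 replicate 1 alone. It was -0.35 with RPKM as listed.

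**Figure D3:**
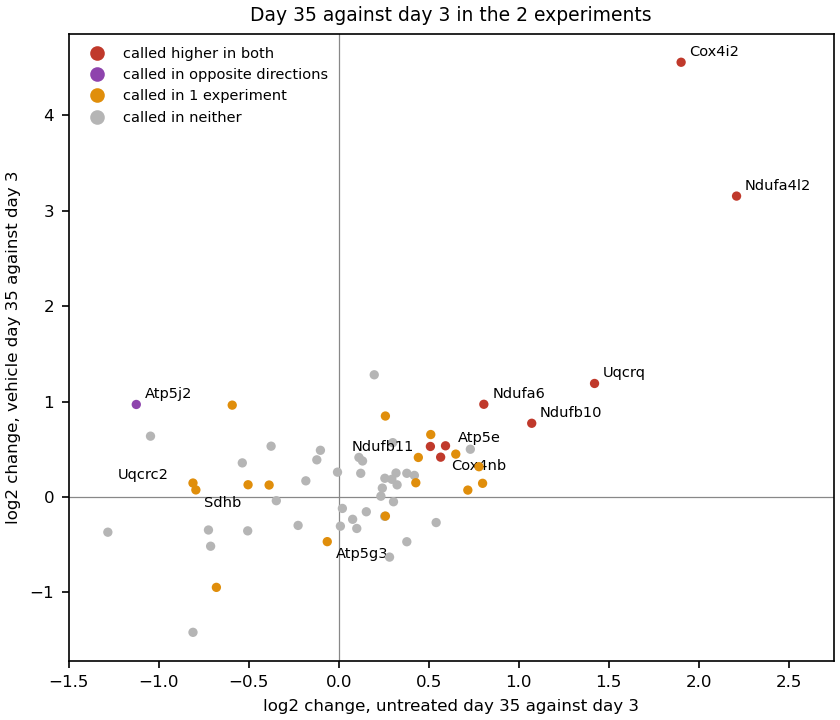
Log2 change from day 3 to day 35 of the 63 members tested in both experiments, with untreated cells on the horizontal axis and vehicle-treated cells on the vertical axis, coloured by whether a gene was called in both, in 1 or in neither experiment. Uqcrq, Ndufb10 and Ndufa6 lie in the upper right with changes between 0.77 and 1.42 in both, Cox4i2 and Ndufa4l2 lie farther out, and Atp5j2 lies in the upper left.

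Among the isoforms known from other settings, Cox4i2 and Ndufa4l2 rose in both experiments and Cox8b with vehicle, and their changes were larger than that of any other member called in the same comparison. In the hormone experiment, too, these genes passed the filter only through day 35 libraries. A difference from day 3 was thus a condition of their being tested. Cox4i2 is the form of subunit 4 known from lung and from low oxygen. It stood at 0.162, 0.219 and 0 scaled RPKM on untreated day 3, at 0 in all 3 libraries on day 14, at 0.0838, 1.68 and 0.752 on day 28, and at 1.3, 1.77 and 2.54 on day 35 (1.90 ± 0.35, limma adjusted p = 0.000234). Up to day 21 no library exceeded 0.278, and every day 35 library did. In the hormone experiment Cox4i2 had 0, 0 and 7 counts in the vehicle day 3 libraries and 45, 34 and 36 on day 35 (4.55 ± 1.61, edgeR adjusted p = 0.0447). That call was lost with library sizes alone (0.0557), after background subtraction (0.0568) and without vehicle day 3 replicates 1 or 2 or any vehicle day 35 library (edgeR adjusted p from 0.0796 to 0.108). As a share of Cox4i1 and Cox4i2 together it reached 16.7%, 28.6% and 47.7% on untreated day 35 but 1.35%, 0.989% and 1.01% on vehicle day 35, beside Cox4i1 levels that differed between the experiments.

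Ndufa4l2, a paralog of Ndufa4 known as a target of the hypoxia-inducible factor, stood at 0, 0 and 0.147 scaled RPKM on untreated day 3 and did not exceed 0.273 up to day 21. It had 0.165, 2.98 and 2.71 on day 28, where replicate 1 stayed at the earlier level, and 2.1, 2.53 and 1.54 on day 35 (2.21 ± 0.43, limma adjusted p = 0.000398). With vehicle it had 11, 3 and 13 counts on day 3 and 70, 63 and 34 on day 35 (3.15 ± 0.80, edgeR adjusted p = 0.00723). In both experiments all day 35 libraries lay above all day 3 libraries for Ndufa4l2 and for Cox4i2. The same held for 28.0% of all tested genes in untreated cells and 24.3% with vehicle. For these isoforms it is a description only, since a difference from day 3 was a condition of their being tested.

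Cox6a2, the heart and skeletal muscle form of subunit 6a, did not pass the filter in untreated cells. Only 2 libraries, both on day 35, reached 1 RPKM as listed. In scaled RPKM it stood at 0.143, 0 and 0 on day 3, at 0 in every library on days 7 and 21, at 0.147, 0 and 0 on day 28, and at 3.35, 2.55 and 1.72 on day 35. All 3 day 35 libraries lay above all 15 earlier ones, and without the filter Cox6a2 rose by 2.45 ± 0.17 (limma adjusted p = 5.1e-08). It was at 0 in 12 of the 18 untreated libraries, so the spread shared over all days comes largely from libraries at 0. The SE and adjusted p therefore do not measure the spread among the day 35 libraries. With vehicle it had 0, 0 and 4 counts on day 3 and 11, 18 and 28 on day 35, which was not called (edgeR adjusted p = 0.116). Cox8b, the muscle and brown fat form of subunit 8, stood at 0, 0 and 0.182 scaled RPKM on untreated day 3 and at 2.31, 0.392 and 0 on day 35, so that 1 later library was at 0. With vehicle it had 0 counts in all 3 day 3 libraries and 22, 17 and 12 on day 35 (edgeR adjusted p = 0.00871), which is at least 25.4-fold higher against a floor of 3 counts over the day 3 group. Cox8b was tested there only because its day 35 libraries passed the filter. Cox7a1, another muscle form, had 0 counts in the vehicle day 3 libraries and 0, 3 and 2 on day 35. The testis form Cox6b2 had 18, 98 and 56 counts on vehicle day 3 and 30, 7 and 8 on day 35, without a call (-1.42 ± 0.78, edgeR adjusted p = 0.191). With hormone on day 3, Cox8b had 2, 0 and 6 counts and Cox6a2 3, 0 and 4.

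**Figure D4:**
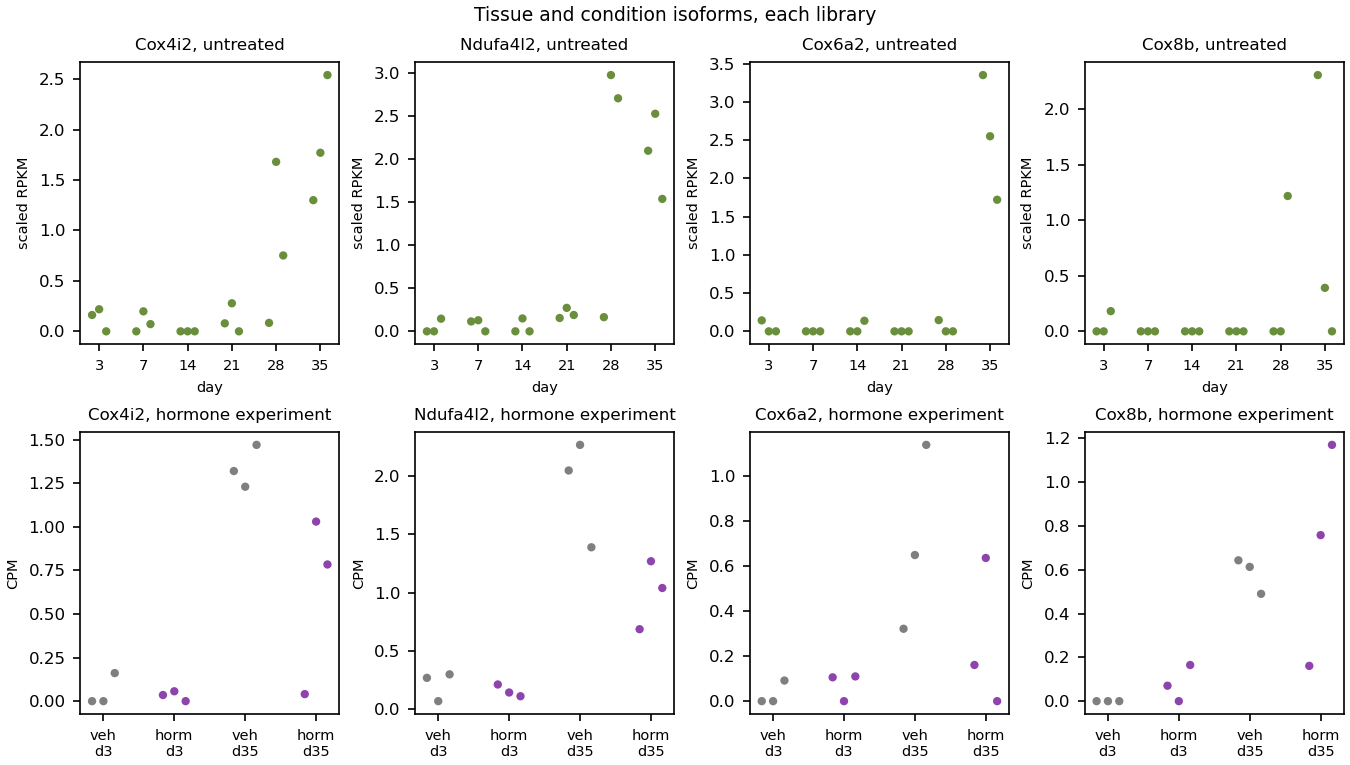
Level of Cox4i2, Ndufa4l2, Cox6a2 and Cox8b in each library, in scaled RPKM by day for untreated cells (top) and in CPM by group for the hormone experiment (bottom), 1 point a library. Cox6a2 reaches 1.72 to 3.35 only on untreated day 35, and Cox8b is at 0 in all 3 vehicle day 3 libraries.

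The promoter of Cox8b is shown because it is the member with no count at all on vehicle day 3 and a call on day 35. It lies at chr7:140900397-140900696 on the minus strand (RefSeq, GRCm38.p6), with 250 bases before and 50 after the annotated start, and capitals mark TATAAA and the letters ACGTG on either strand.
Cox8b: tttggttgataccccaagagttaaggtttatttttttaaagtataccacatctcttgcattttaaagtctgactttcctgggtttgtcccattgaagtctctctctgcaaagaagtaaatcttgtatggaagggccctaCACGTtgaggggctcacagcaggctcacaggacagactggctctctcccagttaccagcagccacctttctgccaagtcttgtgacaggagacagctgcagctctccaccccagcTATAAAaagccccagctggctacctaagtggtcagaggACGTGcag

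Markers of cell types that use these isoforms were read in the same libraries. Of 15 skeletal and cardiac muscle markers, 13 were listed at 0 in all 3 untreated day 35 libraries, among them Ckm, Mb, Myh6, Myh7 and Acta1, and the summed level was 0.21 to 1.04 scaled RPKM beside 0.752 to 1.35 on day 3. Of the same markers 9, with Ckm, Mb and Myh7 among them, were at 0 on untreated day 3 as well. In the vehicle groups the muscle sum was 7.12 to 11.4 CPM on day 3 and 1.7 to 2.89 on day 35, with Ckm, Mb, Myh6 and Tnnt3 at 0 on both days. Acta1 held most of the day 3 sum, at 5, 10.8 and 6.79 CPM, and stood at 0.351, 0.397 and 0.204 on day 35. Some others, such as Myh1 and Des, had higher means on vehicle day 35. The 7 adipocyte markers summed to 10.3 to 20.5 CPM on vehicle day 3 and 30.5 to 37.2 on vehicle day 35, with Plin1 at 0 on day 35 and Adipoq at 0 on day 3 and at 4.94, 2.49 and 2.04 on day 35. In untreated cells that sum was 10.3 to 15.8 scaled RPKM on day 3 and 11.4 to 24.5 on day 35, with Fabp4, Lep and Plin1 at 0 on day 35. The part of adipocyte-marker expression in the isoform levels was not tested. In these bulk libraries, more cells with an isoform and more RNA per cell cannot be told apart.

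After 24 h of 1,25(OH)2D3 on day 3, with TMM scaling, 5 of 79 tested members fell and none rose: Atp5g3, Uqcrfs1, Cox5b, Atp5b and Ndufv1. Of all genes 20.5% were called, 11.4% higher and 9.09% lower, beside 6.33% of members. The member median was -0.28 and that of all tested genes was 0.26, and 66 of 79 members had a negative change. This direction depends on the scaling, and the TMM factors were 1.18 to 1.29 in the hormone day 3 libraries and 0.909 to 0.959 with vehicle. With library sizes alone, an alternative added after the data were seen, 2 members rose (Ndufv3 and Cox4nb) and 1 fell (Atp5g3), and the medians were 0.11 for members and 0.65 for all genes. With library sizes alone the all-gene calls moved from 2278 higher and 1824 lower to 4228 and 594. The members lay below the all-gene median under TMM, RLE and library-size scaling. A scaling factor moves both medians by about the same amount, so agreement between these scalings was fixed in advance. Reads over 1100 olfactory receptor genes, used as a measure of background, also differed: 4.35 to 6.04 per kilobase with hormone on day 3 and 0.54 to 0.72 with vehicle. After subtraction of that background 2 members fell, with a member median of -0.18 beside 0.00 for all genes. DESeq2 called 6 lower and 1 higher, and at an unadjusted p under 0.05 the edgeR test had 21 members in either direction.

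Atp5g3 had 43.1, 44.8 and 36.7 CPM with vehicle and 20, 25.1 and 25.9 with hormone on day 3. The groups did not overlap, and the change was -0.81 ± 0.15 (edgeR adjusted p = 0.00276), or -0.42 ± 0.14 with library sizes alone (edgeR adjusted p = 0.0398). Uqcrfs1 had 81.1, 93.2 and 75.5 CPM with vehicle and 44.4, 46.8 and 59.8 with hormone (-0.73 ± 0.15, edgeR adjusted p = 0.00499), and -0.34 with library sizes alone, which was not called. Atp5b, the most abundant member of the experiment, had 682, 504 and 567 CPM and then 379, 430 and 418 (-0.52 ± 0.15, edgeR adjusted p = 0.0299). Cox5b, an outer subunit of complex IV, had 64.8, 51.9 and 45.4 and then 31.1, 37.8 and 24.2 (-0.80 ± 0.25, edgeR adjusted p = 0.0394). Ndufv1 had 151, 144 and 124 and then 101, 104 and 107 (-0.42 ± 0.14, edgeR adjusted p = 0.0491). Each of these 5 was lower in all 3 hormone libraries than in all 3 vehicle libraries, as were 20 of the 79 tested members (25.3%), and none was higher in all 3. Of all 20055 tested genes, 15.6% were lower and 35.3% higher in all 3 hormone libraries under TMM scaling. With library sizes alone Atp5b changed by -0.12, Cox5b by -0.41 and Ndufv1 by -0.03, none of them called. Without single libraries the calls of Atp5b (any hormone library, edgeR adjusted p from 0.0639 to 0.0836), Cox5b (vehicle replicates 1 or 2, hormone replicates 1 or 3, 0.0625 to 0.133) and Ndufv1 (vehicle replicates 1 or 2 or any hormone library, 0.0513 to 0.108) were also lost, and those of Atp5g3 and Uqcrfs1 were not. Leaving out 1 library moved the count of lower members from 5 to 12 without vehicle day 3 replicate 3 and to 2 without hormone day 3 replicate 1 or replicate 3, and to 3 without hormone day 3 replicate 2. The summed share of the widely used subunits in the counts of all genes was 0.403%, 0.316% and 0.334% with vehicle. It was 0.339%, 0.369% and 0.379% with hormone, so that the groups overlapped. Adipocyte markers reached 174 CPM in 1 hormone day 3 library, where Adipoq was at 28.9, and 13.8 CPM in the lowest, and their part in these results was not tested.

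**Figure D5:**
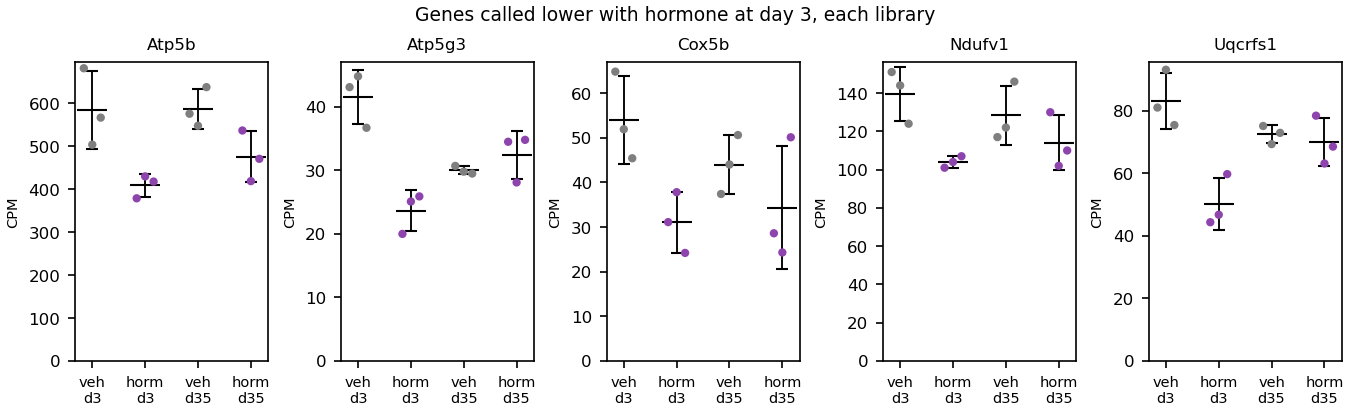
CPM of Atp5b, Atp5g3, Cox5b, Ndufv1 and Uqcrfs1 in each of the 12 libraries of the hormone experiment, with the mean and SD of 3 libraries a group. On day 3 the hormone libraries lie below the vehicle libraries in all 5 panels under TMM scaling, as in Atp5g3 with 20 to 25.9 against 36.7 to 44.8.

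On day 35 no member was called with hormone by edgeR, while 4.56% of all genes were, 2.41% higher and 2.14% lower. At an unadjusted p under 0.05 there were 4 members, DESeq2 called 1 lower, and the member median was -0.07. Ndufs5, an accessory subunit of complex I on the intermembrane side, came nearest, with 23, 20.7 and 29.7 CPM with vehicle and 15.6, 13 and 17.8 with hormone (-0.66 ± 0.18, edgeR adjusted p = 0.0533), and it was called lower with library sizes alone (-0.63 ± 0.15, edgeR adjusted p = 0.0302). The difference between the responses on the 2 days was called for 1 member, Atp5g3, by 0.92 ± 0.22 (edgeR adjusted p = 0.0177), beside 7.08% of all genes (4.14% higher and 2.94% lower), and was not called with library sizes alone (0.56, edgeR adjusted p = 0.0811). On day 35 Atp5g3 had 30.7, 29.8 and 29.5 CPM with vehicle and 34.5, 28.1 and 34.8 with hormone, a response of 0.11 ± 0.15. Without hormone day 35 replicate 2 the difference was called higher for 5 members. With library sizes alone the 1 member called for the difference was Cox4nb, at -0.63. For the other members a call on day 3 and none on day 35 is not a tested difference. Among the isoforms, Cox4i2 had 2, 34 and 37 counts and Ndufa4l2 34, 42 and 49 with hormone on day 35, none of them called.

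Counts for other genes of mitochondrial energy metabolism, taken from lists of known function, are given beside the same all-gene shares as above (25.8% higher and 28.7% lower in untreated cells, 15.5% and 14.5% with vehicle), and no difference between lists was tested. Assembly factors of the complexes were called higher for 5 and lower for 3 of 25 tested in untreated cells and higher for 6 and lower for none of 26 with vehicle. Sco2, which delivers copper to complex IV, rose by 1.20 ± 0.11 in untreated cells, and Sdhaf1, an assembly factor of complex II, by 1.43 ± 0.20 with vehicle. Mitochondrial ribosomal proteins rose in 22 and fell in 4 of 64, and rose in 14 and fell in 1 of 75 with vehicle. Of the TCA cycle and pyruvate dehydrogenase, 1 rose and 6 fell of 17 in untreated cells, and 2 rose and 3 fell of 18 with vehicle. Dlst, of the oxoglutarate dehydrogenase complex, fell by 1.80 ± 0.29 on the log2 scale in untreated cells and by 0.52 ± 0.15 with vehicle. In the hormone comparison on day 3, 6 of 18 genes of this list fell and none rose, with a median of -0.43 under TMM scaling, beside 9.09% of all genes lower. The list had 2 lower and a median of -0.04 with library sizes alone.

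Glycolysis and hypoxia genes were called higher in 11 and lower in 4 of 25 in untreated cells (median 0.58), and higher in 20 and lower in 4 of 32 with vehicle (median 1.05). Pfkl, of phosphofructokinase, rose by 2.52 ± 0.19 in untreated cells and 2.38 ± 0.15 with vehicle, and Pdk1, which restrains pyruvate dehydrogenase, by 3.20 ± 0.16 with vehicle. The experiments differed in direction for Bnip3, a hypoxia-responsive mitophagy receptor, at -1.01 ± 0.39 untreated and 2.70 ± 0.18 with vehicle, and for Gapdh, at -1.05 ± 0.24 and 0.84 ± 0.19, and all 4 changes were called. With library sizes alone, 3 of 32 fell and 5 rose with hormone on day 3. Under TMM scaling 12 fell and 1 rose, beside 9.09% of all genes lower and 11.4% higher. Under that scaling Hk2 was at -2.19 ± 0.18 and Slc2a1, the main glucose transporter, at -1.69 ± 0.20.

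Genes of coenzyme Q synthesis were called higher for 2 and lower for 4 of 8 in untreated cells, and higher for 3 and lower for 2 of 11 with vehicle. Pdss1, which makes the side chain, was lower in both, by -2.14 ± 0.28 and -1.42 ± 0.27. Cycs, the cytochrome c that joins complexes III and IV, fell by 0.67 ± 0.19 with vehicle on the log2 scale (edgeR adjusted p = 0.013). Genes of mitochondrial biogenesis and mtDNA upkeep rose in none and fell in 2 of 12 untreated, and rose in 4 and fell in 2 of 16 with vehicle, and Polg, the mtDNA polymerase, was at -0.69 ± 0.16 and -0.50 ± 0.16. Carriers of adenine nucleotides and phosphate were called once in each direction of 5 in untreated cells (Slc25a4 at 1.02 ± 0.17, Vdac2 at -1.27 ± 0.23) and not at all of 10 with vehicle. Of the 13 respiratory genes encoded in mitochondrial DNA, 7 were tested in untreated cells, and ND1 (0.62 ± 0.12) and ND4 (0.46 ± 0.19) rose. Cytosolic ribosomal proteins, listed for comparison, rose in 27 and fell in 6 of 77 in untreated cells, and rose in 51 and fell in none of 78 with vehicle.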

How the data were processed

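Directional total RNA libraries, depleted of ribosomal RNA, were made with different kits in the 2 experiments, per the labels' protocols. Reads were aligned with TopHat to mm9, per the submitters' processing notes, and the counting program and annotation are not given in the sources used here. The authors deposited RPKM for the 18 untreated libraries and whole-number counts for the 12 hormone-experiment libraries, in files whose names say RPKM. The deposited RPKM were divided by median-of-ratios factors and tested with limma 3.58.1 (R 4.3.3) on log2(scaled RPKM + 0.5), for genes with at least 1 RPKM in 3 libraries, with 12 residual degrees of freedom. Fold changes on this scale understate changes of low genes. Ribosomal RNA rows made up 71.6 to 88.4% of the listed RPKM. Counts were tested with edgeR 4.0.16 (filterByExpr, TMM, 8 residual degrees of freedom). Alternatives were other scalings, pseudocount 0.1, no filter, summed rows, DESeq2 1.42.0, replicate block, sequencing run, background subtraction and left-out libraries.

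Replicate numbers pair the untreated libraries: all 45 same-numbered pairs had correlated deviations (0.107 to 0.584). Genes named were a fixed panel of 31 catalytic subunits and isoforms, the 5 largest calls in each direction, members called with hormone, level extremes, and up to 3 genes of each other list. Others named are Ndufa13, Ndufb2, Ndufc2, Uqcrh, Cox7b, Cox7c, Ndufs5, Bnip3, Gapdh and those given by call or level beside them, chosen after their values were seen. The list of mitochondrially encoded genes was added after the files were seen. Members and lists were chosen with earlier results of these data known. The scripts were tested on simulated data. The result of 1 member of the panel is not reported here.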

Additional observations from a re-analysis of the deposited data

Results flagged for a closer look

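The response of Atp5g3 to 24 h of 1,25(OH)2D3 differed between day 35 and day 3 by 0.92 on the log2 scale, by a test of the difference itself in edgeR. It was -0.81 ± 0.15 on day 3 and 0.11 ± 0.15 on day 35 (SE, 3 libraries a group). The reads of Atp5g3 can be shared with Atp5g1 and Atp5g2, and the difference was 0.56 and not called with library sizes in place of TMM factors.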

How the results depend on the processing

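Of 83 named changes called, 22 kept their direction and call under every alternative run, and of 1143 alternative values 252 kept the sign without the call and 14 changed sign. With RPKM as listed, 0 members were lower on day 7, 1 higher and 1 lower on day 14, 2 higher on day 21, 3 higher on day 28, and 2 higher and 24 lower on day 35. Rescaling without ribosomal RNA gave 4 higher on day 14, 7 higher and 7 lower on day 28, and 4 higher and 14 lower on day 35. Quantile normalization gave 4 higher on day 14 and 8 on day 35. With the sequencing run as a term, 8 were higher on day 7. On day 35 that term leaves replicate 1 alone to carry the change, since replicates 2 and 3 were the only libraries of their run. The replicate block gave 10 higher on day 7, 5 on day 14 and 20 on day 28, and moved no other untreated count by over 1.5 times. Signs changed on day 35 with RPKM as listed for Uqcrfs1 (-0.62), Uqcr11 (-0.45), Ndufa11 (-0.40), Ndufb11 (-0.35), Cox4nb (-0.30), Atp5e (-0.28), Ndufs8 (-0.19), Ndufb3 (-0.16), Ndufa13 (-0.08) and Ndufa6 (-0.03), after rescaling for Uqcrfs1 (-0.19) and Uqcr11 (-0.02), after quantile normalization for Uqcrfs1 (-0.12), and with the run term for Atp5j2 (0.33). The cause was not tested.

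In the hormone experiment the replicate numbers do not pair the libraries (18 pairs, correlations from -0.205 to 0.526, mean -0.00846). The replicate block there gave 0 lower for vehicle day 35 and 3 lower for hormone on day 3, where Cox5b and Ndufv1 lost their calls. With only the 6 libraries compared, 2 were lower for vehicle day 35 and 3 for hormone on day 3. For hormone on day 3, DESeq2 gave 1 higher, RLE 3 lower, no filter 17 lower, background subtraction 2 lower, and library sizes alone 2 higher and 1 lower. On day 35, DESeq2, background subtraction and library sizes alone each gave 1 lower. For the difference between days, DESeq2 gave 2 higher, no filter 3 higher, and library sizes alone 0 higher and 1 lower.

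Leaving out 1 library in turn gave 0 to 2 higher and 2 to 3 lower on day 7, 0 to 2 and 2 to 3 on day 14, 2 to 7 and 3 to 4 on day 21, 8 to 13 higher and 3 lower on day 28, and 10 to 15 and 4 to 8 on day 35. It gave 11 to 20 higher and 0 to 1 lower for vehicle day 35, 0 to 1 higher and 2 to 12 lower for hormone on day 3, 0 of either kind on day 35, and 1 to 5 higher and 0 lower for the difference. The isoforms rest on few counts, at most 70 a library.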
